A study of Mus musculus with 2 samples.

Results

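Transcription factor genes that direct myeloid lineage choice, 8 in number, were followed through 2 single-cell RNA libraries: Cebpa, Cebpb, Cebpe, Spi1, Irf8, Gfi1, Klf4 and Runx1. They are 8 of the 32285 genes listed in the matrices and were chosen by name. Their counts were read in 10821 barcodes that held at least 8000 unique molecular identifiers (UMIs, 1 per captured RNA molecule) and under 10% mitochondrial UMIs. Both libraries came from bone marrow Lin-Sca-1+c-Kit+ (LSK) cells, the fraction that holds stem and early progenitor cells, of BCR-ABL+ mice aged 8-10 weeks. In these C57BL/6 mice the BCR-ABL oncogene is driven by the SCL promoter once tetracycline is withdrawn, and the LSK cells were sorted 2 weeks after withdrawal. The miR-142 WT CML library came from miR-142+/+ BCR-ABL mice, a model of chronic phase chronic myeloid leukemia. The miR-142 KO CML library came from miR-142-/- BCR-ABL mice, in which the study describes a blast crisis-like disease. Both groups carry the SCL-driven transgene, so neither library shows normal marrow. The number of mice per library is not given in the sources used here. With 1 library in each group no difference between genotypes could be tested. The intervals given are exact 95% intervals that cover counting error only, and a ratio of at least 1.5-fold is used as a mark of size.

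Granulocytes and monocytes arise from a shared progenitor. Spi1 encodes PU.1, the Ets-family factor that myeloid cells need throughout, and Runx1 encodes a core factor of blood stem cells and progenitors. Cebpa opens the granulocyte-monocyte path, Cebpb is the C/EBP factor of emergency granulopoiesis, and Cebpe drives the later neutrophil granule stages. Gfi1 is a repressor that favors the neutrophil fate, whereas Irf8 and Klf4 favor the monocyte fate, and Irf8 also acts in dendritic and lymphoid progenitors. Loss of Irf8 in mice is known to produce a disease that resembles chronic myeloid leukemia.

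The genes were placed on GRCm38 by the GENCODE M21 annotation. Irf8 (ENSMUSG00000041515) lies on the plus strand of chr8:120736358-120756694, and Gfi1 (ENSMUSG00000029275) on the minus strand of chr5:107716657-107726036. Cebpe (ENSMUSG00000052435) lies on the minus strand of chr14:54710360-54712174, and Klf4 (ENSMUSG00000003032) on the minus strand of chr4:55527143-55532466. Irf8 overlaps Gm20388 on the same strand, so its count is less certain where reads were shared. Overlaps with a gene on the other strand were found for Gfi1 (A430072P03Rik), Cebpa (Gm45091), Cebpb (Tmem189) and Runx1 (Gm26626). The part of such overlaps in their counts was not tested. Because the genotypes differ in miR-142, the longest annotated 3′ untranslated region of each gene was searched for the heptamers that pair with the seed, bases 2 to 8, of either miR-142 arm, ACACTAC for miR-142-3p and ACTTTAT for miR-142-5p. The mature arms from RefSeq (GRCm38.p6) are shown with the seed in capitals, since they are what the KO mice lack.
mmu-miR-142a-3p, chr11:87756903-87756925, plus strand: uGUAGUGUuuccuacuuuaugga
mmu-miR-142a-5p, chr11:87756867-87756887, plus strand: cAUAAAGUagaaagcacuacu
Gfi1 held 1 match to each arm in a 3′ untranslated region of 1083 bases, and the other 7 genes held none. Among 7331 expressed genes with such a region, 6.60% held a miR-142-3p heptamer and 16.0% a miR-142-5p heptamer. Both Gfi1 matches are shown because Gfi1 is also 1 of the 3 tested members past the size mark. They are written on the gene's own strand with the heptamer in capitals.
Gfi1, miR-142-3p match, chr5:107717701-107717707: cagctgtgtaACACTACcgtgagggat
Gfi1, miR-142-5p match, chr5:107716845-107716851: gttaggtgggACTTTATtagatgcctg
Neither heptamer is followed by an A. A match is a description of the letters and was not measured as a site.

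The 250 bases before a RefSeq start of Irf8 and of Gfi1 are shown because these genes stood on opposite sides of the comparison below. The sequences are those of RefSeq (GRCm38.p6), which supplied promoters for 6 of the 8 genes. Capitals mark matches to the motifs searched on both strands: C/EBP (TTNCNNAA), PU.1 (GAGGAA), IRF (the interferon-stimulated response element), GFI1 (AAATCNC), RUNX (TGTGGT) and STAT (TTCNNNGAA). The KLF motif (GGGTG) was also searched and is not in capitals, since 52.0% of all promoters held it.
Irf8, chr8:120736108-120736357, plus strand: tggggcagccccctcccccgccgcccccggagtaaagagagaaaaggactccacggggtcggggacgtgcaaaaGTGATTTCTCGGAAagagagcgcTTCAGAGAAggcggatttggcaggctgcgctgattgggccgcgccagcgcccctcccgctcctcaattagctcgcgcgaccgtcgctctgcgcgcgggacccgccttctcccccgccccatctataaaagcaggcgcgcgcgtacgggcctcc
Gfi1, chr5:107725806-107726055, minus strand: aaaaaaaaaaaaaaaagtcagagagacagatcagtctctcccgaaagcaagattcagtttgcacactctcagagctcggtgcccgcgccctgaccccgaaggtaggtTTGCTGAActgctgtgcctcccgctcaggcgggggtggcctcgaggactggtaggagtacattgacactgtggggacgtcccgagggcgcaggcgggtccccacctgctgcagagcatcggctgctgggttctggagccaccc
The Irf8 window held 2 STAT motifs, which start 171 and 153 bases before the start of the gene, and a GFI1 motif on the opposite strand that starts 176 bases before it and overlaps the first STAT motif. The Gfi1 window held 1 C/EBP motif, 143 bases before the start, and 2 KLF motifs, 111 and 5 bases before it, while the Irf8 window held 0 KLF motifs. RefSeq puts this Gfi1 start at position 107725805, inside the gene as GENCODE draws it, so that 231 of the 250 bases lie within the GENCODE gene. Irf8 and Gfi1 each have another RefSeq start, whose windows held 0 matches to any motif searched. Over 32851 promoters of this length, 7.02% held a STAT motif, 10.3% a GFI1 motif and 36.8% a C/EBP motif.

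The libraries kept 5363 WT and 5458 KO cells, with medians of 19443 and 24182 UMIs per cell. The host transcript of miR-142, Mir142hg, was counted 1260 times in WT and 20 times in KO cells, 9.12 and 0.126 counts per 1000000 UMIs (CPM). Kit was at 86.4 CPM in WT against 68.3 CPM in KO cells, and Ly6a, which encodes Sca-1, at 96.8 and 153 CPM. Markers of other cell types were present in the sort: 186 WT and 283 KO cells passed a basophil and mast cell gate, 8 and 184 an innate lymphoid gate, and 36 and 0 an antibody-secreting gate. In all, 4 cell barcodes occurred in both libraries.

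Over all cells the neutrophil-side factors Cebpe and Gfi1 were higher in the KO library, and the monocyte-side factor Irf8 was lower. Cebpe stood at 5.51 CPM in WT against 42.5 CPM in KO cells, from 762 and 6727 UMIs. Its log2 ratio of KO over WT was 2.94 (interval 2.84 to 3.05). Gfi1 stood at 22.3 CPM in WT against 50.9 CPM in KO cells, a log2 ratio of 1.19 (1.13 to 1.253). Irf8 stood at 77.7 CPM in WT against 38.2 CPM in KO cells, a log2 ratio of -1.02 (-1.07 to -0.98). Of the 7 genes with a mean of at least 10 CPM, 2 were at least 1.5-fold higher and 1 at least 1.5-fold lower in KO cells. Cebpe reached that mean only through the KO library, so its place in this count depends on its own difference. Across all 7483 genes at that level, 2.77% were higher and 4.81% lower by this measure, with a median log2 ratio of -0.08. At a smaller mark, a fold of 5 to 4, 4 members were higher and 1 lower, where 7.59% and 18.7% of all genes were.

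The other factors differed less. Cebpa stood at 45.1 CPM in WT against 64.9 CPM in KO cells (log2 0.52, 0.48 to 0.57). Cebpb stood at 149 CPM in WT against 199.4 CPM in KO cells (log2 0.42, 0.40 to 0.45). Spi1, the most abundant of the 8, stood at 193 CPM in WT against 231 CPM in KO cells (log2 0.26). Runx1 stood at 92.7 CPM in WT against 81.2 CPM in KO cells (log2 -0.19), the closest of the 8 to equality. Klf4, at 9.05 CPM in WT against 5.35 CPM in KO cells, was under the 10 CPM needed for the size mark, and its log2 ratio was -0.76 (-0.88 to -0.63). UMIs count RNA 3′ ends, so these levels do not scale with gene length.

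**Figure D1:**
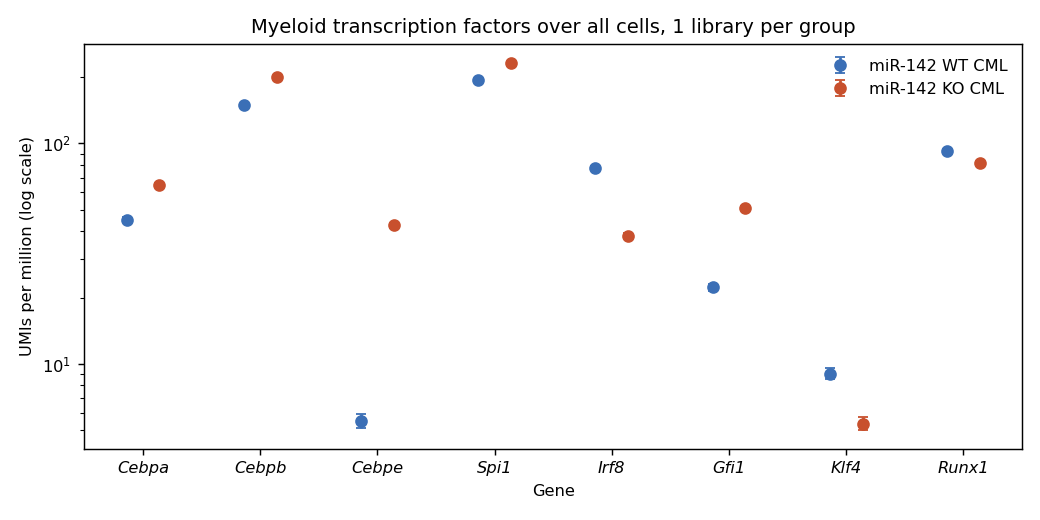
Levels of the 8 transcription factors over all cells, in CPM on a log scale, for 1 library of each genotype. Points are library totals and bars are exact 95% Poisson intervals, which cover counting error only. Cebpe lies at 5.51 in WT and 42.5 in KO cells, and Irf8 at 77.7 and 38.2.

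Cells differed in total UMIs, with a higher median in KO over all cells and a lower one in KO inside each of the 8 gates compared below. Shares of cells with a UMI were therefore taken after every cell was thinned to 8000 UMIs. Cebpe was detected in 2.09% of WT and 15.1% of KO cells, and Gfi1 in 14.1% and 25.8%. Cebpa was detected in 20.8% of WT and 33.1% of KO cells, and Cebpb in 48.5% and 66.6%. Irf8 behaved differently: it was detected in 22.2% of WT and 20.8% of KO cells, close shares despite its 2-fold difference in level. Over all cells, what differed was the upper tail. Cells with at least 3 Irf8 UMIs made up 3.92% of WT and 1.37% of KO cells, and the mean number of UMIs in Irf8-positive cells was 1.72 in WT and 1.36 in KO. For Cebpe, cells with at least 3 UMIs made up 0.0746% of WT and 2.47% of KO cells. Unthinned, the share with Irf8 was 36.9% in WT and 43.0% in KO cells, in the opposite order to the level in CPM. Inside gates defined below, the thinned share with Irf8 also differed, in both directions. It was 44.9% in WT and 23.3% in KO granule-high cells without monocyte genes, and 76.0% and 38.5% in those with them. In HSC-marker cells it was 7.31% in WT and 19.1% in KO. In cells of the megakaryocyte and erythroid gate, where these factors should be scarce, Cebpe was detected in 0.833% of WT and 0.418% of KO cells after thinning, Irf8 in 2.92% and 2.93%, and Gfi1 in 0.417% and 2.51%.

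The cells were divided by marker genes, none of them one of the 8 factors. Granule-high cells held at least 5000 CPM of Elane, Mpo, Prtn3 and Ctsg, the serine proteases and peroxidase of primary granules, and were set apart as having monocyte genes where 8 monocyte markers summed to at least 1000 CPM. HSC-marker cells held at least 150 CPM of 7 stem cell genes, among them Mecom, Procr and Fgd5, and were not cycling. Hlf, a stem cell gene left out of that gate, was at 219 CPM in the WT and 89.3 CPM in the KO HSC-marker cells. Granule-high cells without monocyte genes made up 10.1% of the WT library (544 cells) and 44.9% of the KO library (2451 cells). Those with monocyte genes made up 6.99% (375 cells) and 7.66% (418 cells). HSC-marker cells made up 10.96% (588 cells) and 4.42% (241 cells), and lymphoid-primed-like cells 6.73% (361 cells) and 2.88% (157 cells). The gates cut a continuum: 321 WT and 566 KO cells had a granule sum near the granule-high threshold, at a ratio to it of 0.8 up to the reciprocal of 0.8. By the same measure 532 WT and 331 KO cells of any gate lay near the HSC-marker threshold, beside 588 and 241 cells in that gate. Near the monocyte threshold lay 228 WT and 416 KO cells of any gate, beside 375 and 418 in the gate with monocyte genes. Fewer cells of a gate and less RNA per cell cannot be told apart in the library totals. The values inside gates below are free of the gate shares, but not of differences in makeup inside a gate. In granule-high cells without monocyte genes, Ly86 was at 21.7 CPM in WT against 5.82 CPM in KO, and Elane at 1328 and 3123 CPM. Fewer cells with a gene and less of its RNA per cell were not told apart there.

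Over the cells of the compared gates, each difference was split arithmetically into a part from gate shares and a part from levels inside gates. The shares were of UMIs, and other cells were left out, so totals differ slightly from those above. The split separated the genes. For Cebpa, 18.5 of the 19.97 CPM by which KO exceeded WT came from gate shares, and for Cebpb 39.0 of 50.04 CPM. For Runx1 gate shares gave -11.3 of -12.1 CPM. Irf8 stood apart: gate shares alone gave 5.78 CPM more in KO, while levels inside gates gave -45.5 CPM. For Cebpe 25.2 of 37.8 CPM, and for Gfi1 18.5 of 28.7 CPM, came from levels inside gates. For Spi1 25.6 of 37.8 CPM came from gate shares. For Klf4 gate shares gave -1.80 CPM and levels inside gates -2.16 CPM.

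In granule-high cells without monocyte genes, Cebpe stood at 15.4 CPM in WT against 56.1 CPM in KO (log2 1.86, 1.72 to 2.01). In the same cells Gfi1 stood at 34.5 CPM in WT against 61.1 CPM in KO (log2 0.82, 0.72 to 0.92). Irf8 stood at 93.2 CPM in WT against 32.9 CPM in KO (log2 -1.50, -1.58 to -1.43). The early factors showed no such gap: Cebpa was at 79.9 CPM in WT against 76.8 CPM in KO, Spi1 at 245.9 and 244.7 CPM, and Runx1 at 66.3 and 66.1 CPM. The log2 intervals of these 3 genes included 0 and stayed within 0.13 of it. Of 7 tested members 2 were past 1.5-fold higher and 1 lower, where 2.49% and 1.59% of all genes in these cells were. Thinned to 8000 UMIs, 44.9% of WT and 23.3% of KO cells of this gate held Irf8, and 8.64% and 25.3% held Cebpe.

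In granule-high cells with monocyte genes, Irf8 reached its highest level in either library, 224 CPM in WT against 96.1 CPM in KO (log2 -1.22, -1.30 to -1.14). Klf4 was highest there in WT, at 21.3 CPM, and stood at 5.85 CPM in KO (log2 -1.87, -2.18 to -1.57). Cebpe stood at 10.6 CPM in WT against 65.2 CPM in KO (log2 2.62), and Gfi1 at 22.3 and 63.0 CPM (log2 1.496). All 8 members were tested in this gate, and 2 were higher and 2 lower by 1.5-fold, against 3.62% and 2.98% of all genes, with Klf4 at the 10 CPM mean only through WT. The gate held different marker RNA in the libraries. Ly86 was at 129 CPM in WT against 49.3 CPM in KO, and Ctss, a lysosomal protease, at 53.0 and 15.5 CPM, while Fcgr3 was at 80.0 and 174 CPM. As an alternative chosen after seeing the data, when only Ly86, Csf1r, Ctss, Ccr2 and Ms4a6c defined monocyte genes, at 500 CPM, 382 WT and 139 KO granule-high cells passed. Irf8 then stood at 219 CPM in WT against 164 CPM in KO, a log2 ratio of -0.41 that was no longer past 1.5-fold, and Klf4 at 19.6 and 11.4 CPM (log2 -0.78). Cebpe in these cells was at 1.98 CPM in WT against 7.57 CPM in KO, and Gfi1 stayed past 1.5-fold, with a log2 ratio of 0.66. By this list 2.56% of all genes were higher and 1.83% lower by the size mark. In the 537 WT and 2730 KO granule-high cells under that level, Irf8 stood at 102 CPM in WT against 36.8 CPM in KO (log2 -1.47), where 2.28% of all genes were higher and 1.27% lower by 1.5-fold. The 5 genes of this list were themselves lower in KO in the gate and include Csf1r and Ms4a6c, which followed Irf8 across gates, so this split is not independent of the Irf8 difference. With all gate thresholds halved, the log2 ratio of Irf8 was -0.97 in granule-high cells and -1.71 in those with monocyte genes, the reverse of their order above.

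HSC-marker cells showed Irf8 in the opposite order, as did non-cycling cells of no gate, described below. In HSC-marker cells Irf8 stood at 9.86 CPM in WT against 26.2 CPM in KO, from 64 and 66 UMIs (log2 1.41, 0.89 to 1.93). The share with Irf8 was 7.31% of WT and 19.1% of KO cells at 8000 UMIs. Klf4 stood at 11.9 CPM in WT against 21.8 CPM in KO (log2 0.88, 0.35 to 1.40). Cebpa stood at 15.7 CPM in WT against 28.6 CPM in KO (log2 0.86), and Cebpb at 81.4 and 133 CPM (log2 0.70). In this gate 4 of 7 tested members were at least 1.5-fold higher and 0 lower, where 4.31% and 5.56% of all genes were, with Irf8 at the 10 CPM mean only through KO. With all gate thresholds halved, Cebpa (log2 0.21) and Klf4 (0.03) were no longer past 1.5-fold, and with thresholds doubled Cebpb (0.35) was not, while Irf8 was at 0.88 and 1.40. Granule RNA moved with this difference, with a median of 889 CPM in WT against 1292 CPM in KO HSC-marker cells. Among HSC-marker cells with under 1000 CPM of granule RNA, Irf8 was at 8.26 CPM in WT against 20.1 CPM in KO (log2 1.29, 0.34 to 2.18). Among those with 1000 to 5000 CPM, it was at 12.2 and 29.3 CPM (log2 1.26, 0.59 to 1.95). In the barcodes with under 100 UMIs, which hold free RNA, Irf8 was at 53.0 CPM in WT against 25.9 CPM in KO. Klf4 there was at 8.54 and 2.74 CPM, also lower in KO. Cebpa (39.8 and 56.7 CPM) and Cebpb (133 and 187 CPM) were higher in KO there, as in the gate. The part of free RNA in the gate values was not tested.

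Outside these gates, Irf8 in lymphoid-primed-like cells stood at 100.4 CPM in WT against 53.1 CPM in KO (log2 -0.92, -1.21 to -0.64). Dntt, an enzyme of lymphoid progenitors that belongs to this gate's list, was at 905 and 390.2 CPM in the same cells. Cebpb was higher in KO in lymphoid-primed-like cells (85.3 CPM in WT, 138 CPM in KO, log2 0.69) and in non-cycling cells of no gate (83.2 and 152 CPM, log2 0.87). In lymphoid-primed-like cells 1 of 6 tested members was past 1.5-fold higher and 1 lower, where 5.39% and 7.79% of all genes were. In non-cycling cells of no gate 1 of 7 was higher and 0 lower, where 3.02% and 4.36% were. Irf8 there was higher in KO but inside 1.5-fold, at 22.3 CPM in WT against 30.1 CPM in KO (log2 0.43, 0.06 to 0.81). With all gate thresholds halved and doubled, its log2 ratio there was 0.82 and 0.85. In cycling cells of no gate, the largest group of the WT library with 2635 cells and 1071 in KO, no member of the 6 tested passed 1.5-fold, where 1.42% of all genes were higher and 2.35% lower, and Irf8 was at 36.1 and 29.5 CPM.

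Gfi1 in basophil/mast-like cells stood at 11.04 CPM in WT against 33.7 CPM in KO (log2 1.61, 1.14 to 2.11), the 1 of 5 tested members past 1.5-fold there, where 8.12% of all genes were higher and 5.68% lower. Cebpe was counted 0 times in the 186 WT cells of this gate and 82 times in the 283 KO cells, and 42 of those UMIs lay in 5 cells. Elane was at 48.8 CPM in WT against 683 CPM in KO cells of this gate, and its free-RNA level was 681 and 2558 CPM. The part of granule-cell RNA in these values was not tested. Megakaryocyte/erythroid-like cells held little of most factors: Cebpa stood at 5.21 CPM in WT against 4.56 CPM in KO, and Irf8 at 3.96 and 4.83 CPM, while Runx1 was at 115 and 121 CPM. No tested member of the 3 in that gate was past 1.5-fold, where 3.39% of all genes were higher and 4.48% lower. Spi1 and Runx1 stayed inside 1.5-fold in all 8 gates compared, with log2 ratios of -0.04 to 0.49 for Spi1 and -0.16 to 0.13 for Runx1.

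**Figure D2:**
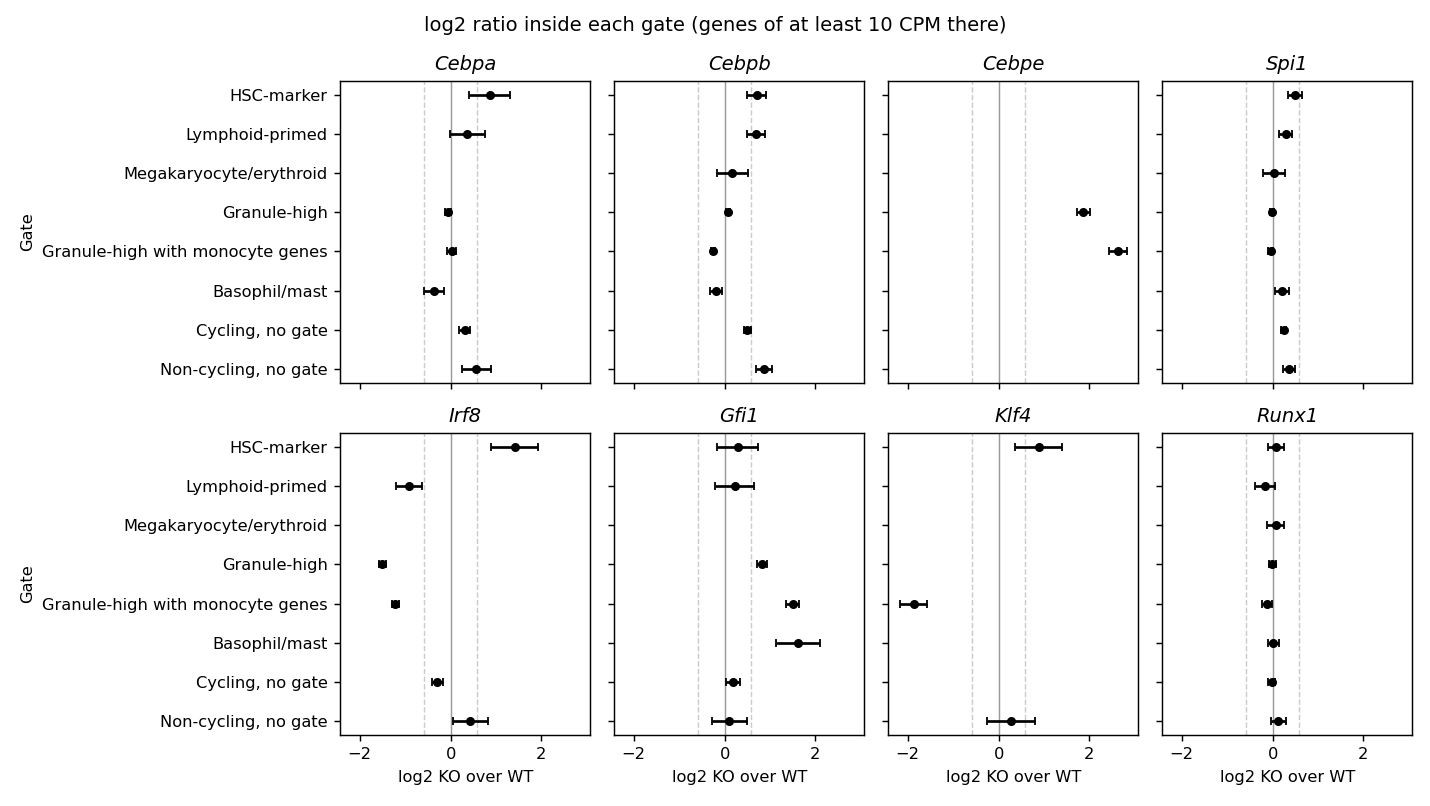
log2 ratio of KO over WT for each factor (panels) inside each gate (rows), shown where the mean level in the gate was at least 10 CPM. Bars are exact 95% intervals that cover counting error only, and dashed lines mark 1.5-fold. Irf8 lies at 1.41 in HSC-marker cells and at -1.50 in granule-high cells, and Runx1 lies near 0 in every gate.

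To compare cells at a like sum of granule RNA, cells were grouped by the summed CPM of Elane, Mpo, Prtn3 and Ctsg. The makeup of this sum differed between libraries. In granule-high cells without monocyte genes Elane was at 1328 CPM in WT against 3123 CPM in KO, and Mpo at 2752 and 2004 CPM. The free-RNA level of the sum was 5849 CPM in WT against 13471 CPM in KO, and its part in the grouping was not tested. In WT cells Irf8 went up with granule RNA, from 15.3 CPM in cells under 500 CPM to 166 CPM at 10000 to 20000 CPM and 152 CPM above that. In KO cells it peaked at 52.2 CPM, between 5000 and 10000 CPM of granule RNA, and was 29.2 CPM in the cells with the most. In the lowest group the log2 ratio of Irf8 was -1.33 (-2.31 to -0.50), from 209 WT and 12 KO UMIs. It was -0.25 (-0.67 to 0.15) at 500 to 1000 CPM and -0.53 at 1000 to 2500. Above these groups it was -1.03 at 2500 to 5000 CPM, -1.38 at 5000 to 10000, -1.72 at 10000 to 20000 and -2.38 (-2.50 to -2.26) at 20000 or more. Klf4 was also lower in KO where granule RNA was highest. In WT cells it was at 14.7 CPM between 10000 and 20000 CPM and 13.5 CPM above, and in KO cells at 3.75 and 1.78 CPM. In cells with 500 to 1000 CPM of granule RNA the order of Klf4 was the other way round, 8.14 CPM in WT against 15.0 CPM in KO.

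Cebpe appeared late on this scale. It was under 4 CPM in both libraries up to 5000 CPM of granule RNA, and in the top group it reached 38.2 CPM in WT against 111 CPM in KO. Its log2 ratio was 1.504, 1.75 and 1.54 in the top 3 groups. Gfi1 differed by less than its counting error up to 5000 CPM and then parted, at 40.8 CPM in WT against 88.9 CPM in KO in the top group (log2 1.13, 0.96 to 1.29). Cebpa rose with granule RNA in both libraries, from 9.32 CPM in WT against 9.12 CPM in KO at the bottom to 87.2 and 74.4 CPM at the top. It was somewhat higher in KO at 5000 to 10000 CPM (log2 0.22, 0.11 to 0.33) and lower at 20000 or more (-0.23, -0.35 to -0.11). Runx1 declined from 118 CPM in WT against 104 CPM in KO to 51.5 and 49.9 CPM. Cebpb crossed over: KO cells were higher at 500 to 1000 CPM (71.1 CPM in WT, 113 CPM in KO) and lower at 10000 to 20000 CPM (303 and 235 CPM).

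**Figure D3:**
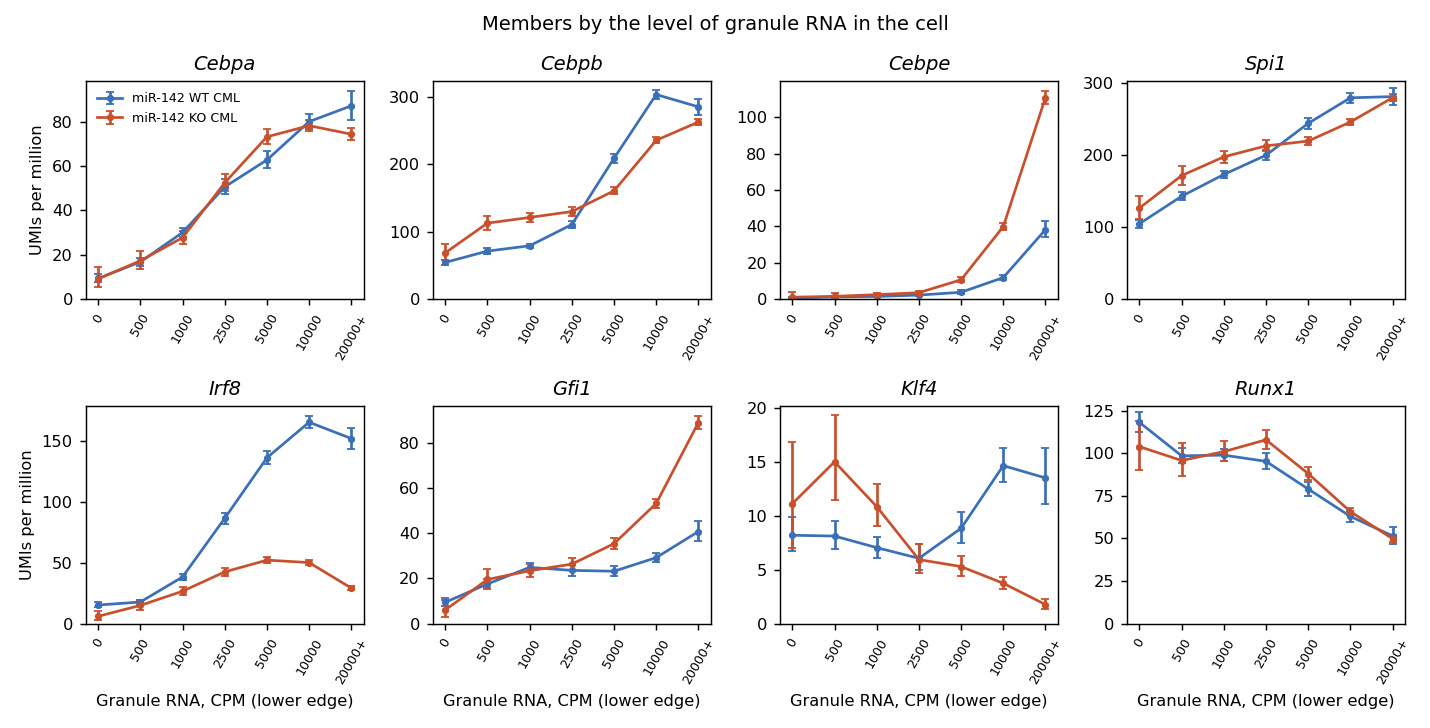
Level of each factor (panels, CPM) in cells grouped by granule RNA, the summed CPM of Elane, Mpo, Prtn3 and Ctsg (lower edge of each group on the x axis), in both libraries. Bars are exact 95% Poisson intervals for counting error. The curves of Irf8 and Klf4 part downward in KO cells and those of Cebpe and Gfi1 upward, to 29.2 and 152 CPM for Irf8 in KO and WT cells of the top group.

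The order of Irf8 and Klf4 also turned with the number of UMIs per cell and with the cell cycle. In cells with 8000 to 16000 UMIs Irf8 stood at 18.4 CPM in WT against 29.4 CPM in KO (log2 0.68, 0.50 to 0.86). At 16000 to 32000 UMIs it was at 35.9 and 37.3 CPM, with an interval that included 0, and at 32000 or more at 125 and 40.3 CPM (log2 -1.64). Klf4 was at 10.2 CPM in WT against 14.01 CPM in KO in the first of these groups and at 9.97 and 3.30 CPM in the last. Granule-high cells without monocyte genes had medians of 47246 UMIs in WT and 36690 in KO, and those with monocyte genes 60488 and 45018. Within granule-high cells of both kinds, Irf8 was lower in KO at each depth: at 8000 to 32000 UMIs it was at 111 CPM in WT against 51.1 CPM in KO, at 32000 to 64000 at 142 and 39.1 CPM, and above 64000 at 171 and 51.4 CPM. In these 3 depth groups Cebpe had log2 ratios of 1.28, 2.18 and 2.28, and Gfi1 0.54, 1.08 and 1.35.

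Cells with at least 1000 CPM of S phase and G2/M genes made up 76.8% of WT and 76.3% of KO cells. Irf8 in WT was at 85.2 CPM in cycling and 16.99 CPM in non-cycling cells, a log2 ratio of 2.33 between them, whereas in KO it was at 39.1 and 30.5 CPM (log2 0.36). Among non-cycling cells Irf8 was therefore the higher in KO (log2 0.85, 0.63 to 1.07). Klf4 in KO was at 4.24 CPM in cycling and 15.0 CPM in non-cycling cells (log2 -1.82), and in WT at 8.89 and 10.3 CPM. Runx1 was lower in cycling than in non-cycling cells in both libraries, with log2 ratios of -0.66 in WT and -1.14 in KO. The part of cell makeup in these cycle differences was not tested.

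**Figure D4:**
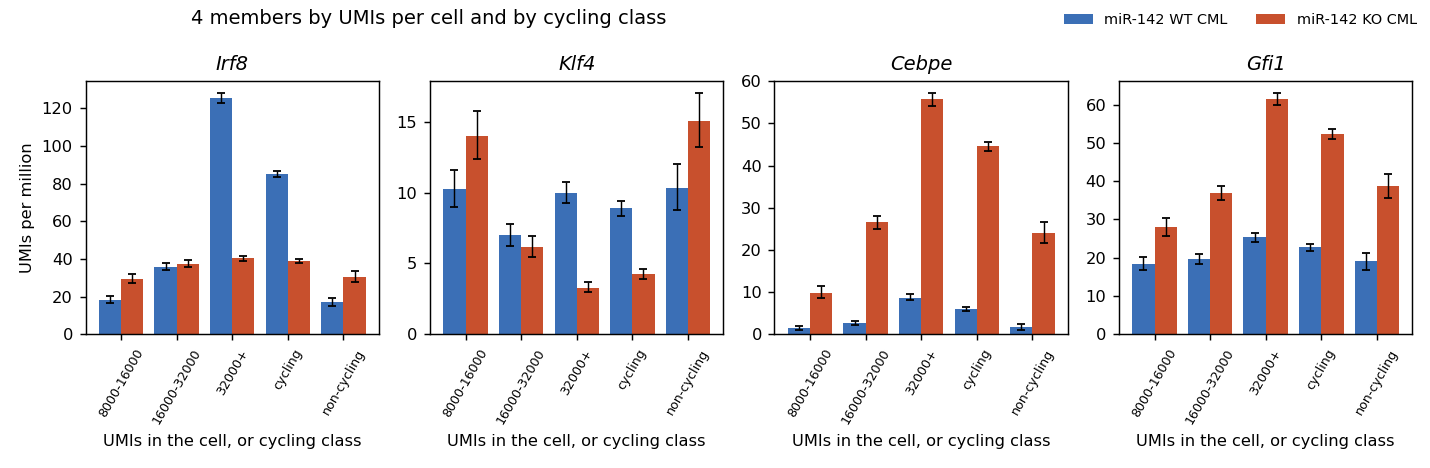
Irf8, Klf4, Cebpe and Gfi1 in CPM (bars start at 0) by UMIs per cell and by cycling class, in the WT and KO libraries, with exact 95% Poisson intervals. KO exceeds WT for Irf8 in cells with 8000 to 16000 UMIs (29.4 and 18.4) and in non-cycling cells, and lies below it in cells with 32000 or more (40.3 and 125).

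Joint detection inside single granule-high cells was then read, with both granule-high gates joined and every cell thinned to 8000 UMIs (919 WT and 2869 KO cells). The number of cells with both genes was divided by the number expected if the genes were detected independently. Cebpe and Gfi1 were found together 1.76 times as often as that number in WT (27 cells, 15.3 expected) and 1.36 times in KO (354 cells, 260 expected). Irf8 and Klf4 were found together 1.38 and 1.45 times as often. Cebpe and Irf8 were found together 0.75 times as often in WT (32 cells, 42.6 expected) and 0.54 times in KO (105 cells, 194 expected). Cebpe and Klf4 shared 6 WT cells where 5.48 were expected, and 2 KO cells where 20.1 were expected. The broad factors paired near the expected number, such as Cebpa with Cebpb (289 WT cells where 292.9 were expected, 981 KO cells where 984 were) and Spi1 with Irf8 (448 WT cells where 444 were expected, 626 KO cells where 623 were).

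**Figure D5:**
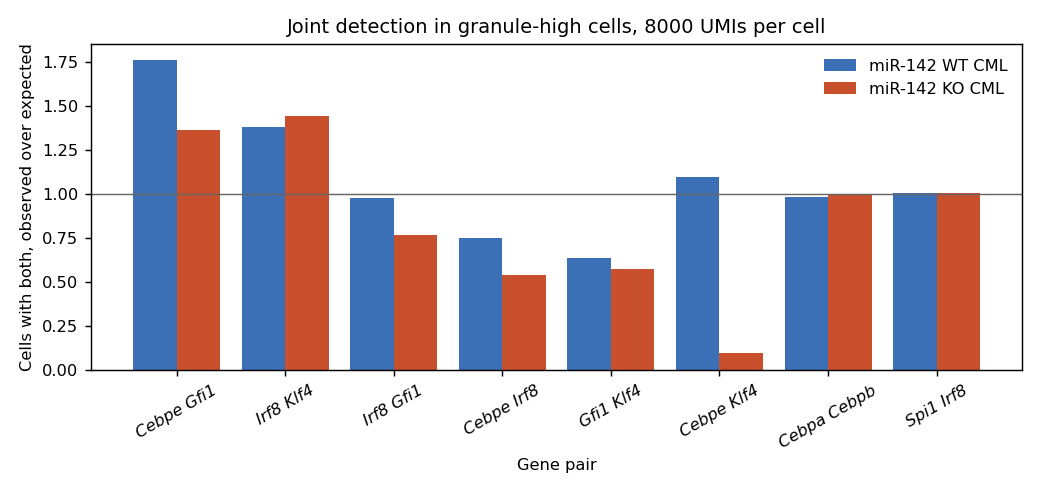
Cells in which both genes of a pair were detected, divided by the number expected from their separate shares, among granule-high cells thinned to 8000 UMIs. The line at 1 marks independence. Cebpe with Gfi1 lies at 1.76 in WT and 1.36 in KO, and Cebpe with Irf8 at 0.75 and 0.54.

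Granule-high cells with an Irf8 UMI at that depth were 529 of the WT and 731 of the KO cells. They held more of the monocyte-side RNAs than the cells without one. Ly86, a Toll-like receptor partner, was at 84.4 CPM in Irf8-positive and 31.7 CPM in Irf8-negative WT cells, and at 22.7 and 6.55 CPM in KO cells. Ctss was at 49.4 and 16.3 CPM in WT, and at 13.2 and 5.67 CPM in KO. Cebpe went the other way, at 8.74 CPM in Irf8-positive and 18.6 CPM in Irf8-negative WT cells (log2 -1.09, -1.72 to -0.47) and at 27.5 and 65.2 CPM in KO cells (log2 -1.24, -1.49 to -1.01). S100a8, a calcium-binding protein of neutrophils, was at 26.0 and 51.9 CPM in WT and at 27.9 and 146 CPM in KO. Gfi1 was lower in Irf8-positive KO cells, at 38.5 CPM beside 63.0 CPM (log2 -0.71), while the WT interval included 0.

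Granule-high cells with a Cebpe UMI held more of some neutrophil RNAs and less Irf8. S100a8 in KO was at 315 CPM in the 760 Cebpe-positive and 43.9 CPM in the 2109 Cebpe-negative cells (log2 2.84), and in WT at 89.5 and 32.4 CPM. Fcnb, a ficolin of maturing neutrophils, was at 8.06 and 1.19 CPM in KO. Irf8 was at 20.9 CPM in the Cebpe-positive and 54.4 CPM in the Cebpe-negative KO cells. The monocyte-side RNAs split in KO. Ly86 (log2 -1.60, -2.25 to -1.01), Ctss (-2.16, -3.10 to -1.34) and Ccr2 (-0.90, -1.13 to -0.68) were lower in Cebpe-positive cells. The intervals of F13a1 (log2 -0.02, -0.12 to 0.08) and Csf1r (-0.12, -0.55 to 0.30) included 0. In WT F13a1 was lower in Cebpe-positive cells (log2 -0.75, -1.16 to -0.37), while the interval of Csf1r (-2.25 to 0.17) included 0. The secondary granule genes Ltf, Camp and Ngp were scarce over all sorted cells: Ltf was counted 5 times in all WT and 2 times in all KO cells, Camp 4 and 27 times, and Ngp 3 and 23 times. Lcn2, another secondary granule gene, was abundant by contrast, at 568 CPM in the Cebpe-positive and 410.1 CPM in the Cebpe-negative KO cells.

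Across 16 sums of UMIs, 8 gates in each of 2 libraries, the genes whose log2(CPM + 1) followed each factor most closely were named by Pearson's r among 7483 genes, as a description of sums that share libraries. Cebpe was followed by Wfdc21 (r 0.952), Lrg1 (0.945) and S100a8 (0.945). Irf8 was followed by Csf1r, the receptor of the macrophage growth factor (r 0.945), Ms4a6c (0.935) and Srp68 (0.930). Csf1r and Ms4a6c are among the markers that define the gate with monocyte genes, where Irf8 was highest, so their rank is not independent of the gating. Cebpa was followed by Atp8b4, Anxa2 and Cebpb, and Cebpb by Hvcn1, Hk2 and Cebpa, all with r of at least 0.94. Spi1 was followed by Cebpd, Hk3 and Gria3 (0.966 to 0.956), Gfi1 by Jdp2, Spi1 and Cebpd (0.914 to 0.907), and Runx1 by Capg, Myh9 and Gch1 (0.979 to 0.972). Klf4 had no close companion, with Relch at 0.820, Cyp4f16 at 0.703 and Anxa7 at 0.684.

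Close relatives of the 8 factors were read over all cells, where 2.77% of all genes were higher and 4.81% lower by the size mark. Of 22 family members 16 were tested, 0 were past 1.5-fold higher and 2 lower, with a median log2 ratio of -0.33 beside -0.08 for all genes. The lower genes were Irf2, at 71.2 CPM in WT against 43.4 CPM in KO (log2 -0.71), and Erg, an Ets factor of stem cells, at 40.0 and 24.9 CPM (log2 -0.68). Runx2 followed with a log2 ratio of -0.55. At the other end stood Cebpd, at 39.7 CPM in WT against 59.1 CPM in KO (log2 0.57), Klf13 (log2 0.24) and Runx3 (log2 -0.03).

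Of 32 partners and upstream regulators 22 were tested, 2 were higher and 4 lower, with a median of -0.23, beside 2.77% higher and 4.81% lower of all genes. Id1, which blocks E proteins, stood at 22.7 CPM in WT against 45.1 CPM in KO (log2 0.99), and Id2 at 17.6 and 27.9 CPM (log2 0.66). Myb had a log2 ratio of 0.23. Jun, a partner of PU.1, stood at 803 CPM in WT against 484 CPM in KO (log2 -0.73). Egr1, an immediate early factor of the monocyte side, had a log2 ratio of -0.69, Zeb2 of -0.66 and Tal1 of -0.61. Inside the gates compared, Egr1 was lower in KO in 4 and higher in 4, at any size. Jun, Zeb2 and Tal1 were each lower in 6 and higher in 2.

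Genes known as targets of these factors were read last, against the same shares of all genes, 2.77% higher and 4.81% lower. Of 10 receptors and surface molecules 8 were tested and 1 was past 1.5-fold, Flt3, at 48.4 CPM in WT against 29.3 CPM in KO (log2 -0.72). Inside the gates compared, Flt3 was higher in KO in 4 and lower in 4, at any size. Csf2ra had a log2 ratio of 0.33, Csf2rb of 0.29, Csf3r of 0.06, Cd34 of -0.36 and Il6ra of -0.35. Of 15 granule genes 10 were tested, and 8 were higher and 0 lower, with a median of 1.497. Some of these genes also defined the granule-high gate. Lcn2 stood at 53.2 CPM in WT against 366 CPM in KO (log2 2.78), Elane at 659 and 2603 CPM (log2 1.98) and Ctsg at 1378 and 4373 CPM (log2 1.67), while Mpo (log2 0.39), Lyz2 (0.27) and Cst7 (0.63) lay lowest among the 10. Inside gates, Lcn2, Elane and Ctsg were higher in KO in 8, whereas Mpo was higher in 3 and lower in 5. Of 15 monocyte-side genes 14 were tested, and 2 were higher and 3 lower, with a median of 0.02. The lower ones were Ly86, at 30.04 CPM in WT against 9.82 CPM in KO (log2 -1.61), Ctss, at 25.2 and 8.84 CPM (log2 -1.51), and the chemokine receptor Ccr2 (log2 -0.65). The higher ones were Fcgr3, at 25.1 CPM in WT against 75.4 CPM in KO (log2 1.59), and F13a1, at 69.4 and 153 CPM (log2 1.14), with Cst3 next (log2 0.57). The monocyte-side genes thus did not differ in 1 direction.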

How the data were processed

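Bone marrow LSK cells were captured with the 10x Genomics 3′ kit v3.1. Per the labels the authors aligned the reads to mm10 with Cell Ranger 6.1.2, while the file headers name version 4. The deposited matrices hold raw UMI counts per gene and barcode, before the authors' filter of 300 UMIs and 10% mitochondrial RNA. Barcodes with at least 8000 UMIs and under 10% mitochondrial UMIs were kept here, which removed 24 WT and 4 KO barcodes for mitochondrial RNA. The kept cells held 138183896 and 158438757 UMIs. Counts were summed by library and gate and scaled to counts per 1000000 UMIs (CPM). Ratios have exact conditional binomial intervals, levels Poisson intervals and shares Clopper-Pearson intervals, all at 95%. No p-value was computed, since each group is 1 library. Genes with a mean of at least 10 CPM were tested against the 1.5-fold mark. Cells were gated in a fixed order by summed marker CPM: antibody-secreting (10000), basophil/mast (5000), innate lymphoid (1000), megakaryocyte or erythroid (600), granule-high (5000, monocyte genes 1000), lymphoid-primed (800) and HSC-marker (150), and the rest by cycling (1000). The gate names were rebuilt here and are not the study's clusters. The thresholds were chosen here, and gates with under 50 cells in a library were not compared. Scrublet's automatic threshold marked 1 WT and 0 KO cells and was judged not to have worked, so doublets were kept, and an alternative removed the 4.29% and 4.36% with the highest scores. The genes followed and the lists of related genes were chosen with earlier results of these data known. The text names the 8 factors, label checks and gate markers, up to the 3 highest and 3 lowest ratios of each list at 10 CPM or more, and the 3 genes most like each factor. S100a8, Fcnb and other markers beside single-cell detection come from fixed marker lists, but were picked after their values were seen. The interval code was tested on simulated data. Alternatives are described with the sensitivity results. Python 3.11.15, numpy 2.4.6, scipy 1.17.1, pandas 2.3.3 and scanpy 1.11.5 were used.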

Additional observations from a re-analysis of the deposited data

Results flagged for a closer look

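Irf8 and Klf4 were singled out because they passed 1.5-fold in opposite directions in different gates. The order of Cebpa and Cebpb also turned between gates, though their lower values stayed inside 1.5-fold. Cebpa ranged from a log2 ratio of -0.37 (-0.59 to -0.15), in basophil/mast-like cells, to 0.86. Cebpb ranged from -0.26, in granule-high cells with monocyte genes, to 0.87. Irf8 had a log2 ratio of KO over WT of 1.41 in HSC-marker cells, and of -0.92 in lymphoid-primed-like cells, -1.50 in granule-high cells and -1.22 in granule-high cells with monocyte genes. Klf4 had a log2 ratio of 0.88 in HSC-marker cells and of -1.87 in granule-high cells with monocyte genes. With 1 library per genotype, the difference between gates was not tested. The HSC-marker values rest on 64 and 66 UMIs of Irf8 and on 77 and 55 UMIs of Klf4.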

How the results depend on the processing

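Of the values of the overall comparison under other settings, 44 stayed within their counting interval or within 1.5 times the count, 47 moved and 3 reversed. The study's cutoff of 300 UMIs and the removal of likely doublets left the 8 ratios within their counting intervals. With size factors the log2 ratios became 0.60 for Cebpa, 0.50 for Cebpb, 0.34 for Spi1, -0.95 for Irf8, 1.27 for Gfi1 and -0.11 for Runx1. At a cutoff of 16000 UMIs they were 0.45 for Cebpa, 0.35 for Cebpb, 0.22 for Spi1, -1.19 for Irf8 and -1.08 for Klf4. Weighted to 1 gate composition they were 0.10 for Cebpa, 0.21 for Cebpb, 1.95 for Cebpe, 0.15 for Spi1, -0.89 for Irf8, 0.65 for Gfi1, -0.0103 for Klf4 and 0.0043 for Runx1. As means of per-cell CPM they were 0.75 for Cebpa, 0.67 for Cebpb, 3.19 for Cebpe, 0.37 for Spi1, -0.41 for Irf8, 1.05 for Gfi1, -0.18 for Klf4 and -0.10 for Runx1. Without granule-high cells they were 0.41 for Cebpa, 0.64 for Cebpb, 2.01 for Cebpe, -0.50 for Irf8, 0.42 for Gfi1, 0.17 for Runx1 and, reversed, 0.50 for Klf4. Without cycling cells they were 0.90 for Cebpa, 0.62 for Cebpb, 3.87 for Cebpe, 0.44 for Spi1, 1.02 for Gfi1, 0.21 for Runx1 and, reversed, 0.85 for Irf8 and 0.54 for Klf4. The cause of these shifts was not tested. The number of members higher by the size mark went from 2 to 4 at a fold of 5 to 4, to 3 with size factors, to 4 by per-cell CPM and to 5 without cycling cells. The number lower went from 1 to 0 by per-cell CPM, without granule-high cells and without cycling cells. Leaving out basophil/mast, innate lymphoid and antibody-secreting cells, an alternative chosen after seeing the data, gave -0.90 for Klf4 and -0.25 for Runx1. The narrower monocyte list was also chosen after seeing the data. Inside gates, thresholds halved or doubled moved Irf8 to -0.97 and -1.94 in granule-high cells, to -1.71 (halved) in those with monocyte genes, and to 0.08 and -0.60 in cycling cells of no gate, and the doubled monocyte threshold left too few KO cells to compare. Other values for single gates and shares moved in 73 cases and stayed in 55. No paired analysis was possible because each group is 1 library. Ratios with few UMIs, such as Irf8 and Klf4 in HSC-marker cells, are limited by depth.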

Other observations

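Chosen after their values were seen, relatives of the factors that lay under the 10 CPM level also differed. Irf7, an interferon-response factor, stood at 9.002 CPM in WT against 2.78 CPM in KO cells (log2 -1.69). Gfi1b, the erythroid and megakaryocyte paralog of Gfi1, stood at 8.93 CPM in WT against 4.63 CPM in KO cells (log2 -0.95), opposite to Gfi1 over all cells. Inside the gates compared, Gfi1b was higher in KO in 5 and lower in 3, at any size, while Gfi1 was higher in 8. Mmp8, a neutrophil collagenase also under that level, was counted 397 times in WT and 40 times in KO cells, while 8 of the 10 granule genes tested were higher in KO.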
